A study of Mus musculus with 56 samples.

Results

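The first 4 h without food were followed in hearts of day-fed mice, by comparing the 4 libraries taken at ZT16 with the 4 taken at ZT12 under daytime-restricted feeding (DRF). Zeitgeber time (ZT) counts the hours after lights on, so ZT12 is the end of both the light phase and the DRF feeding window, and at ZT16 the mice had been 4 h in the dark with no food. These 8 libraries were chosen by regimen and time point alone, out of the 56 polyA RNA-seq libraries of the series. The libraries are of hearts from female C57BL/6J mice aged 9 weeks after 7 days on their regimen, under 12 h of light and 12 h of dark. The regimens were DRF (food in the light phase) and nighttime-restricted feeding (NRF, food in the dark phase), sampled at ZT0, 4, 8, 12, 16, 20 and 24 with 4 libraries per group. All groups were thus food-restricted, and an unrestricted group was not analysed here. At ZT16 both the hours without food and the hour of the day have moved on from ZT12, which cannot be told apart within DRF. The NRF libraries give a pair of comparisons that each share 1 of these changes and differ in others, so that neither separates food from hour: NRF ZT16 minus ZT12 spans the same clock hours with food arriving in place of leaving (8 libraries), and NRF ZT4 minus ZT0 spans the same first 4 h without food but at lights on, another hour of the day (8 libraries).

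When a meal ends, insulin falls and FOXO transcription factors, which insulin signaling through AKT keeps out of the nucleus, return to it and raise transcripts of protein breakdown and of the insulin pathway itself. The heart then burns more fatty acids, whose arrival activates PPAR alpha and raises PDK4, the kinase that shuts pyruvate out of the mitochondrial citric acid cycle. Falling insulin and amino acid supply also lower the activity of mTORC1 and of the SREBP factors, which drive ribosome production and the synthesis of sterols and fatty acids. The circadian clock of the heart runs beneath these changes: CLOCK and BMAL1 (gene Arntl) drive the Per, Cry, Nr1d1 and Dbp genes, whose products feed back on them.

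The 8 libraries held 34.0 to 53.4 M reads assigned to genes (M, 1e+06 reads), against 29.5 to 53.4 M over all 56 libraries. Depth overlapped between the time points, at 40.02 ± 6.62 M for ZT12 and 43.9 ± 7.84 M for ZT16 (mean ± SD, n = 4 each). The 2-sided exact permutation p was 0.457, where 0.0286 is the smallest p that 4 against 4 can give. Mitochondrially encoded genes took 21.4% of the reads at each time point. ZT16 replicate 1 stood apart for clock output genes, given with those genes below. Cardiomyocyte markers summed to 26104 to 31931 TPM (a gene's share of the library's reads corrected for length) at ZT12 and to 29563 to 31297 TPM at ZT16, and 0 of 7 passed the test (4 at an unadjusted p under 0.05, and 3 passed under the median-of-ratios scaling described below). Summed markers of macrophages (434 to 612 TPM at ZT12, 429 to 496 TPM at ZT16), endothelial cells (449 to 604 and 487 to 543 TPM) and red blood cells (4890 to 31405 and 5939 to 46809 TPM) overlapped between the time points. Of the 6 members of each of these lists 0 passed limma's test, with 1 macrophage marker and no other at an unadjusted p under 0.05. Summed markers of atrial myocytes, fibroblasts, smooth muscle, lymphocytes, adipocytes, and Schwann cells and neurons overlapped as well, and 1 gene in all, of the last list, was called. The 5 atrial markers had a median difference of -1.09, all negative, with 0 called and 0 at an unadjusted p under 0.05. Lung and airway markers (0 of 3 tested members called) were low but did not overlap, at 8.65 to 15.2 TPM at ZT12 and 2.79 to 8.0 TPM at ZT16, and their part in the results was not tested.

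Testing covered 13869 genes whose mean reached 1 TPM. Of these 826 (5.96%) differed between ZT16 and ZT12 at an adjusted p under 0.05 in limma's moderated test on log2(TPM + 1). A total of 148 genes rose (1.07%) and 678 fell (4.89%). Differences here are on the log2(TPM + 1) scale, ZT16 minus ZT12, with the standard error of the fit, and this scale understates the change of genes of low level. The 4 libraries of each time point did not overlap, with ZT16 higher, for 293 genes (2.11%), and with ZT16 lower, for 1542 (11.1%). The changes were mostly small: 204 genes, 59 higher and 145 lower, moved by at least 0.5, and 12 moved by at least 1. The balance between risers and fallers depended on the scaling. The median of all genes was -0.09 on the TPM scale, and with libraries rescaled by the median of ratios, which puts that median at 0.00, 589 genes rose (4.25%) and 398 fell (2.87%), so that 40.3% of the called genes were lower, against 82.1% before. Of the 826 genes 537 were also called after that rescaling, none in the opposite direction. When each of the 8 libraries was left out in turn, 272 (without ZT12 replicate 2) to 1035 (without ZT12 replicate 3) genes were called, 148 of the 826 were called every time (45 risers and 103 fallers), and none changed direction. Where a named gene lost its call in such a refit, the number of refits of the 8 and the highest adjusted p among them are given after its p. The gene lengths behind the TPM of Pim1, Mxi1, Angptl4, Cpt1a, Scd1, Scd2 and H2-K2 were found by a search rather than taken from the annotation, so their levels depend on it. In bulk hearts, fewer cells of a type and less RNA per cell cannot be told apart.

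The clearest rises belonged to Pnrc1, Retreg1, Glul and Abra, whose means were 1.75-fold to 2.23-fold higher at ZT16 and which kept their call whichever library was left out. Pnrc1, a nuclear receptor coactivator on chromosome 4 (GRCm38, 33245423 to 33290163), stood at 41.7, 49.2, 47.6 and 61.5 TPM in the 4 ZT12 libraries and at 94.5, 106, 98.2 and 96.6 TPM in the 4 ZT16 libraries. Every ZT16 library was above every ZT12 library, with means of 49.98 ± 8.32 and 98.8 ± 5.0 TPM (SD, n = 4), 1.98-fold apart. The log2 difference was 0.98 ± 0.16 (SE, adjusted p = 0.000329). Retreg1, the receptor that brings endoplasmic reticulum to autophagosomes, went from 72.4, 70.4, 72.8 and 66.1 TPM to 134, 139.6, 131 and 121 TPM, a 1.87-fold rise with no overlap. The log2 difference was 0.89 ± 0.16 (SE, adjusted p = 0.000722). Glul, glutamine synthetase, which disposes of ammonia by amidating glutamate, measured 199, 254, 211 and 248 TPM at ZT12 and 445, 432, 366 and 349 TPM at ZT16. Its 1.75-fold rise (0.80 ± 0.16 SE, adjusted p = 0.00316) also left no overlap between the groups. Abra, an actin-binding activator of SRF signaling in striated muscle, had 15.2, 15.4, 14.6 and 22.6 TPM at ZT12 and 31.7, 49, 39.5 and 31.2 TPM at ZT16, so that the lowest ZT16 library was above the highest ZT12 library (2.23-fold in the means). Its difference was 1.11 ± 0.15 (SE, adjusted p = 1.76e-05).

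Other genes among the 12 largest rises were of lower level or less steady. Ptgds, a prostaglandin D synthase, had the largest difference, with 154, 125, 278 and 188 TPM at ZT12 and 492, 459.5, 290.5 and 449.6 TPM at ZT16. Its difference was 1.22 ± 0.31 (SE, adjusted p = 0.0158, lost in 3 of 8, 0.0813 without ZT12 replicate 2). Klhl34 went from 2.78, 2.36, 1.87 and 2.45 TPM to 4.72, 10.8, 8.2 and 4.15 TPM. The fitted difference came to 1.17 ± 0.22 (SE, adjusted p = 0.00167). Cnksr3, a scaffold protein of the ERK pathway, rose from 10.7, 10.6, 8.81 and 10.6 TPM to 20.2, 22.4, 18.4 and 15 TPM (0.83 ± 0.14 SE, adjusted p = 0.000525). Chac1, which degrades glutathione, had 2.23, 3.22, 2.26 and 2.35 TPM at ZT12 and 9.82, 3.94, 6.07 and 4.77 TPM at ZT16. Its difference was 0.97 ± 0.31 (SE, adjusted p = 0.0488, lost in 8 of 8, 0.144 without ZT16 replicate 1). Ms4a4a, a macrophage surface protein, Mmp3, a matrix metalloproteinase, and Olfr1033, annotated as an olfactory receptor, differed by 0.85 (adjusted p = 0.0254, lost in 4 of 8, 0.0829 without ZT12 replicate 4), 0.75 (adjusted p = 0.0471, lost in 6 of 8, 0.209 without ZT12 replicate 4) and 0.73 (adjusted p = 0.0155, lost in 1 of 8, 0.0541 without ZT16 replicate 4).

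**Figure D1:**
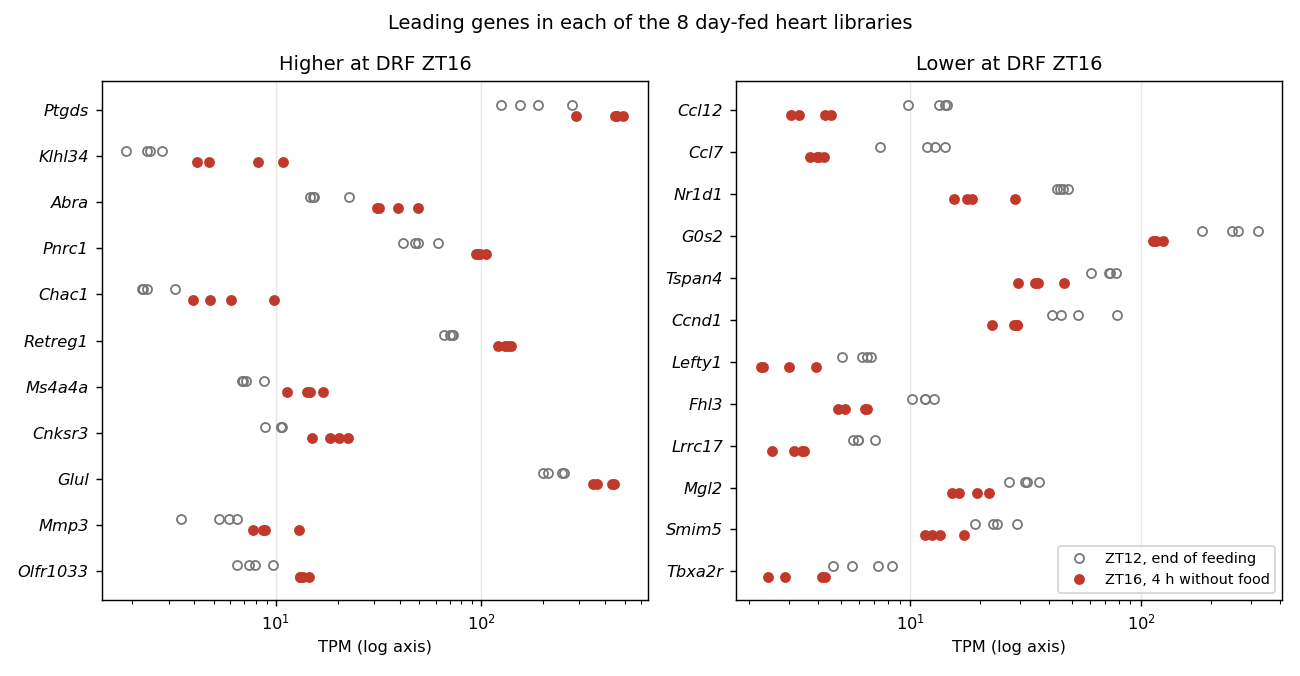
TPM on a log axis in each of the 8 day-fed libraries for 11 of the 12 genes that rose most (left) and the 12 that fell most (right), with open grey points for ZT12 and red points for ZT16. In each gene the 4 ZT16 points lie wholly to one side of the 4 ZT12 points, which was a condition of the choice; Pnrc1 goes from 41.7 to 61.5 TPM up to 94.5 to 106 TPM, and Ccl12 from 9.82 to 14.4 TPM down to 3.05 to 4.53 TPM.

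The largest fall belonged to a chemokine. Ccl12, which draws monocytes into tissue, measured 14.4, 13.3, 9.82 and 14.1 TPM at ZT12 and 3.29, 4.53, 4.28 and 3.05 TPM at ZT16, a fall of 3.41-fold in the means. On the log2 scale this was -1.54 ± 0.28 (SE, adjusted p = 0.00107). Ccl7, its neighbour on chromosome 11 and likewise a monocyte chemokine, went from 11.8, 14.2, 7.4 and 12.8 TPM to 4.04, 3.68, 3.95 and 4.23 TPM (2.9-fold in the means). The fitted difference came to -1.30 ± 0.26 (SE, adjusted p = 0.0022). In both genes the ZT16 libraries lay close together and below all ZT12 libraries. Mgl2, a lectin of resident macrophages, fell from 26.8, 36.1, 31.4 and 32 TPM to 15.2, 19.6, 21.9 and 16.2 TPM (-0.77 ± 0.17 SE, adjusted p = 0.00686), and the macrophage marker list above had no called member. Outside that list single genes were picked after their values were seen, and no count over such genes was made. Of these Aif1 had a difference of -0.73 (adjusted p = 0.00965), Clec12a of -0.66 (adjusted p = 0.00802), Clec5a of -0.69 (adjusted p = 0.0109) and Pilra of -0.66 (adjusted p = 0.00835), where Ms4a4a, named above, was higher.

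Of the other leading fallers, G0s2 inhibits adipose triglyceride lipase and so holds back the release of stored fatty acids. It measured 319.6, 247, 184 and 262 TPM at ZT12 and 125, 116, 113 and 114 TPM at ZT16, with the ZT16 libraries close together and all below ZT12 (2.17-fold in the means). On the log2 scale this was -1.08 ± 0.26 (SE, adjusted p = 0.0114). Ccnd1, the cyclin that takes cells into the division cycle, fell from 44.9, 53.4, 41.2 and 78.4 TPM to 28.9, 29.1, 28.3 and 22.6 TPM (2.0-fold in the means). This gave a difference of -0.94 ± 0.20 (SE, adjusted p = 0.00475). Tspan4, a tetraspanin, and Fhl3, a LIM-domain protein of muscle, fell by a like amount: Tspan4 from 61, 78.2, 72.9 and 73.6 TPM to 46.5, 29.4, 35.7 and 34.9 TPM (-0.96 ± 0.17 SE, adjusted p = 0.000935), and Fhl3 from 11.6, 11.6, 10.2 and 12.7 TPM to 6.5, 5.25, 6.39 and 4.87 TPM. This gave a difference of -0.90 ± 0.15 (SE, adjusted p = 0.000525). Lefty1, a secreted antagonist of Nodal, differed by -0.90 (adjusted p = 0.00354), Lrrc17 by -0.79 (adjusted p = 0.00891), Smim5 by -0.76 (adjusted p = 0.000722) and Tbxa2r, the thromboxane A2 receptor, by -0.75 (adjusted p = 0.0141, lost in 3 of 8, 0.0792 without ZT12 replicate 2). The library kit does not mark strand, so reads of a gene on the opposite strand could be counted too. Of the 85 named genes 37 are overlapped in this way, among them G0s2 (by Lamb3), Tspan4 (Chid1), Ccnd1 (LTO1), Glul (Teddm2), Lrrc17 (Fbxl13), Smim5 (Recql5), Dbp (Sphk2) and Nop56 (Idh3b).

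In the FOXO and insulin responsive list the called genes were all higher at ZT16. Of its 24 members 4 rose (16.7%, where 1.07% of all genes rose) and 0 fell, 19 had a positive sign, and its median was 0.30 against -0.09 for all genes. With median-of-ratios scaling, where 4.25% of all genes rose, 12 rose and 0 fell. Trim63, the muscle ubiquitin ligase MuRF1 that marks myofibrillar proteins for degradation, measured 116, 106, 110.4 and 103 TPM at ZT12 and 178, 162, 171 and 154 TPM at ZT16. All ZT16 libraries exceeded all ZT12 libraries, and the difference was 0.60 ± 0.13 (SE, adjusted p = 0.00495). Sesn1, which holds back mTORC1, rose from 80.3, 79.1, 72.4 and 78.8 TPM to 126, 112, 110.3 and 92.9 TPM. The difference amounted to 0.49 ± 0.10 (SE, adjusted p = 0.00367). Pik3ip1, an inhibitor of PI3 kinase, had 22.7, 21.5, 22.3 and 20.4 TPM at ZT12 and 40.3, 30.1, 30.3 and 29.3 TPM at ZT16, where replicate 1 stood out. The difference was 0.55 ± 0.17 (SE, adjusted p = 0.0425, lost in 7 of 8, 0.126 without ZT12 replicate 4), and without ZT16 replicate 1 it was 0.45 (adjusted p = 0.118). Ccng2, a cyclin that restrains the cell cycle, differed by 0.35 (adjusted p = 0.0418, lost in 8 of 8, 0.14 without ZT16 replicate 2). Fbxo32, the ubiquitin ligase atrogin-1, measured 28.9, 26.7, 25.5 and 26.5 TPM at ZT12 and 48.9, 41.8, 43.1 and 39.1 TPM at ZT16, and Irs2, an insulin receptor substrate, 3.68, 3.88, 3.6 and 5.45 TPM at ZT12 and 6.65, 7.47, 9.74 and 7.9 TPM at ZT16. Neither overlapped between the groups, but both missed the threshold, at 0.66 ± 0.22 (SE, adjusted p = 0.058) and 0.80 ± 0.27 (SE, adjusted p = 0.061). The spread behind these standard errors was estimated over all 14 groups of the series. Leaving out any 1 library left 2 or 3 of the 24 called, and without ZT12 replicate 2, ZT12 replicate 4 or any of the 4 ZT16 replicates it was 2.

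Sequence matches to the FOXO recognition element, GTAAACA on either strand, were counted in the RefSeq promoter windows of GRCm38.p6, over the 250 bases before each start. Of 113 protein-coding risers with a window (of 139) 11 held the element (9.73%), against 2.71% of the 9574 tested protein-coding genes with a window and 3.54% of all 27025 genes with one, and 2 of the 20 FOXO list members with a window (of 24) held it. A match is a description of the letters, not evidence of binding. The stretches around the element are printed for Trim63 and Cnksr3, which were named above, and for Pim1, Bbc3, Mxi1 and Otud1, whose protein products act in survival signaling, cell death, MYC antagonism and deubiquitination, and which were picked after their values were seen. Each is given 5′ to 3′ along the gene's strand, with the element in capitals; TGTTTAC is the element read on the opposite strand.
Trim63, chr4:134314876-134314982, plus strand: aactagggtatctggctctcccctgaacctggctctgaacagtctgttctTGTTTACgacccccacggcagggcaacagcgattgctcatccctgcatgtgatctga
Cnksr3, chr10:7212394-7212487, minus strand: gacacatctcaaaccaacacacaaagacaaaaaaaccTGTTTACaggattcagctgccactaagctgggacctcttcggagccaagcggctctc
Pim1, chr17:29492965-29493071, plus strand: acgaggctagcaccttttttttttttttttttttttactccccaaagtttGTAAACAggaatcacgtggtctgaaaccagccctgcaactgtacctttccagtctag
Bbc3, chr7:16310044-16310150, plus strand: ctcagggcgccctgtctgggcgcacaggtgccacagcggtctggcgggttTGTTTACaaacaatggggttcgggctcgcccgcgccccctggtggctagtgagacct
Mxi1, chr19:53329445-53329520, plus strand: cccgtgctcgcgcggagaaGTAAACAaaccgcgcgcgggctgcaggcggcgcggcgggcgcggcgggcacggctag
Otud1, chr2:19657653-19657730, plus strand: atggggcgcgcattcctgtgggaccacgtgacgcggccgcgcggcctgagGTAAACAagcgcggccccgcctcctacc

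The element begins 194 bases before the start in Trim63, 213 in Cnksr3, 231 in Mxi1, 167 in Bbc3, 70 in Pim1 and 28 in Otud1. Pim1 rose from 11.1, 11.7, 13.8 and 10.2 TPM to 15.4, 17.8, 18.9 and 17.1 TPM (0.53 ± 0.12 SE, adjusted p = 0.00766) and Bbc3 from 4.64, 6.26, 3.94 and 6.48 TPM to 6.68, 7.92, 7.52 and 7.32 TPM (0.42 ± 0.13 SE, adjusted p = 0.043, lost in 5 of 8, 0.137 without ZT12 replicate 3), both without overlap. Mxi1 made a small rise from 19.5, 20.1, 20.9 and 19.5 TPM to 23.1, 25.7, 23.7 and 23 TPM. The log2 difference was 0.24 ± 0.06 (SE, adjusted p = 0.0109, lost in 1 of 8, 0.0574 without ZT16 replicate 2). Otud1 measured 10.9, 14.3, 14.3 and 22.8 TPM at ZT12 and 24.1, 31.5, 30.2 and 22.3 TPM at ZT16, and ZT12 replicate 4 overlapped the lowest ZT16 library. Its difference was 0.79 ± 0.17 (SE, adjusted p = 0.00501).

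Of 28 autophagy genes 2 rose (7.14%, against 1.07% of all genes) and 0 fell, with a median of -0.01. With only the 8 day-fed libraries in the fit 0 were called, and with median-of-ratios scaling or voom 3 rose. Sqstm1, the cargo receptor p62, rose from 158, 166, 160.3 and 174 TPM to 226, 216, 194 and 192 TPM (0.33 ± 0.08 SE, adjusted p = 0.0117), and Atg13, of the complex that starts autophagosomes, differed by 0.26 (adjusted p = 0.0376, lost in 6 of 8, 0.144 without ZT16 replicate 2). Herpud1, which serves the degradation of endoplasmic reticulum proteins, rose from 147, 173, 167 and 193 TPM to 318, 263, 219.7 and 206 TPM (0.55 ± 0.13 SE, adjusted p = 0.0104). It was the 1 of 20 endoplasmic reticulum stress genes (5%, against 1.07% of all genes) to rise, with 0 falling. With only the 8 day-fed libraries in the fit 0 of the 20 were called. Among 31 proteasome subunits 2 fell (6.45%, against 4.89% of all genes) on the TPM scale, Psma4 by -0.23 (adjusted p = 0.0132, lost in 1 of 8, 0.057 without ZT12 replicate 2) and Psma1 by -0.19 (adjusted p = 0.0441, lost in 6 of 8, 0.185 without ZT16 replicate 4). Median-of-ratios scaling gave 2 risers and 0 fallers instead, so no direction is given. Of 16 glucocorticoid responsive genes 2 rose (12.5%, against 1.07% of all genes), namely Mt1, a metallothionein, and Lcn2, an iron-siderophore binder. Mt1 measured 171, 189.99, 221 and 219 TPM at ZT12 and 327, 338, 227 and 290.4 TPM at ZT16, a difference of 0.55 ± 0.15 (SE, adjusted p = 0.0213, lost in 5 of 8, 0.085 without ZT16 replicate 2), and Lcn2 differed by 0.69 (adjusted p = 0.0433, lost in 7 of 8, 0.111 without ZT16 replicate 4). None of the 16 was called without ZT12 replicate 1, ZT12 replicate 2, ZT16 replicate 1, ZT16 replicate 2 or ZT16 replicate 4, while 4 rose with median-of-ratios scaling.

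Among genes of fuel use Ppargc1a and Pygm rose, while Pdk4 and the carnitine palmitoyltransferases were not called. Of 37 genes of fatty acid oxidation and PPAR alpha 1 rose (2.7%, against 1.07% of all genes) and 0 fell, and the median was 0.03. Ppargc1a, the coactivator of mitochondrial biogenesis, rose from 30.9, 25.5, 22.9 and 24.9 TPM to 42.2, 42.4, 42.1 and 33.1 TPM without overlap. The fitted difference came to 0.60 ± 0.13 (SE, adjusted p = 0.00506). Pdk4 measured 123, 169.7, 158 and 111 TPM at ZT12 and 200.02, 289.6, 159 and 226 TPM at ZT16, with overlapping groups and no call. On the log2 scale this was 0.62 ± 0.46 (SE, adjusted p = 0.411). Its mean then stood at 1279 ± 288 TPM at DRF ZT20 and 807 ± 325 TPM at DRF ZT24 (SD, n = 4). Angptl4, a secreted lipoprotein lipase inhibitor, had means in the same order, 6.55 TPM at ZT12, 11.5 TPM at ZT16 and 34.3 TPM at ZT20 (ZT16 minus ZT12 0.82 ± 0.58 SE, adjusted p = 0.388). The carnitine palmitoyltransferases Cpt1a and Cpt1b, gatekeepers of fatty acid entry into mitochondria, differed by 0.02 (adjusted p = 0.957) and 0.05 (adjusted p = 0.903). Of 20 genes of lipid uptake, storage and lipolysis G0s2 alone was called (5%, near the 4.89% of all genes that fell). Under median-of-ratios scaling 3 rose as well, where 4.25% of all genes rose. None of 6 ketone body genes was called by limma or voom, and 1 had an unadjusted p under 0.05.

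Among 28 genes of glucose use 3 rose (10.7%, against 1.07% of all genes) and 0 fell, and 10 rose under median-of-ratios scaling, where 4.25% of all genes rose. Without ZT12 replicate 2 or ZT16 replicate 1 none of them was called higher. The counts were 6 higher and 1 lower with voom, 1 and 1 without ZT12 replicate 3, and 0 and 1 with only the 8 day-fed libraries in the fit. Pygm, muscle glycogen phosphorylase, rose from 553, 466, 469.6 and 526 TPM to 709, 628, 573 and 613 TPM. This gave a difference of 0.32 ± 0.08 (SE, adjusted p = 0.0133, lost in 2 of 8, 0.0645 without ZT12 replicate 2). The glycolytic enzymes Aldoa and Gpi1 differed by 0.24 (adjusted p = 0.0414, lost in 6 of 8, 0.116 without ZT16 replicate 4) and 0.22 (adjusted p = 0.0468, lost in 7 of 8, 0.137 without ZT16 replicate 4). Ppp1r3b, which directs a phosphatase to glycogen and favors its synthesis, measured 24.7, 23.3, 15.9 and 22.6 TPM at ZT12 and 12.1, 15.2, 11.7 and 9.54 TPM at ZT16, without overlap but short of the threshold. The difference amounted to -0.78 ± 0.26 (SE, adjusted p = 0.0562), and over the alternatives its adjusted p ranged from 0.0341 (voom) to 0.177 (without ZT16 replicate 4). Mpc1, of the mitochondrial pyruvate carrier, was the 1 of 9 genes of pyruvate dehydrogenase control that passed (11.1%, against 4.89% of all genes lower). It measured 65, 71.2, 74.6 and 70.9 TPM at ZT12 and 59.2, 54.3, 55.1 and 62.6 TPM at ZT16, a difference of -0.28 ± 0.09 (SE, adjusted p = 0.0428, lost in 7 of 8, 0.121 without ZT16 replicate 2), and median-of-ratios scaling ended the call (adjusted p = 0.274).

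**Figure D2:**
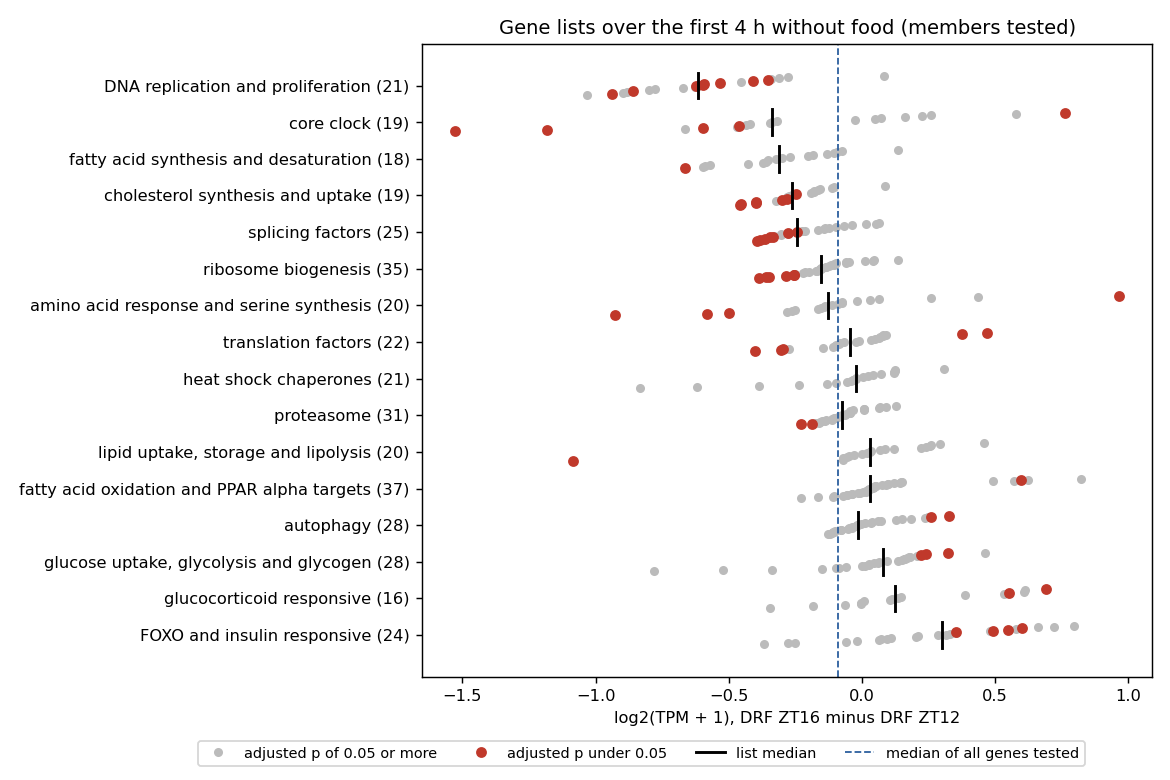
Difference ZT16 minus ZT12 on the log2(TPM + 1) scale for the tested members of 16 gene lists, with red points for members at adjusted p under 0.05, black bars for list medians and a dashed line at the median of all genes (-0.09). The list medians run from -0.62 for DNA replication and proliferation to 0.30 for FOXO and insulin responsive genes.

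In the lists of lipid synthesis the called genes were all lower at ZT16. Of 19 genes of cholesterol synthesis and uptake 7 fell (36.8%, where 4.89% of all genes fell) and 0 rose, with a median of -0.26 and 18 negative signs. With median-of-ratios scaling 5 fell. Idi1, an isomerase of the isoprenoid pathway, went from 2.89, 3.36, 2.77 and 2.92 TPM to 1.87, 2.09, 1.66 and 2.02 TPM without overlap. The log2 difference was -0.45 ± 0.08 (SE, adjusted p = 0.000722). Of the other enzymes of the pathway, Dhcr7 differed by -0.40 (adjusted p = 0.00737), Sqle by -0.40 (adjusted p = 0.0254, lost in 4 of 8, 0.119 without ZT12 replicate 2), Fdft1 by -0.28 (adjusted p = 0.0298, lost in 5 of 8, 0.131 without ZT16 replicate 4) and Hmgcs1 by -0.25 (adjusted p = 0.0413, lost in 6 of 8, 0.184 without ZT16 replicate 4). Srebf2, the transcription factor that drives them, differed by -0.30 (adjusted p = 0.0419, lost in 7 of 8, 0.146 without ZT12 replicate 2). With only the 8 day-fed libraries in the fit 1 of the 19 was called, and 3 were without ZT12 replicate 2, ZT16 replicate 2, ZT16 replicate 3 or ZT16 replicate 4. In the list of 18 fatty acid synthesis genes 17 had a negative sign, where the median of all genes was negative too. The number lower was 0 without ZT12 replicate 2 or ZT16 replicate 4, and 2 without ZT12 replicate 4 or ZT16 replicate 2. In the main fit 1 fell (5.56%, near the 4.89% of all genes). That gene was Scd2, a stearoyl-CoA desaturase, with 31.2, 37.2, 28.1 and 27 TPM at ZT12 and 18.8, 20.2, 19 and 17.9 TPM at ZT16 and a difference of -0.67 ± 0.17 (SE, adjusted p = 0.0138, lost in 2 of 8, 0.0747 without ZT12 replicate 2). Reads shared with its paralogs leave its level uncertain. Scd1 varied widely within each time point, with 316, 567, 272 and 124 TPM at ZT12 and 131, 635, 103 and 136 TPM at ZT16 (difference -0.59 ± 0.67 SE, adjusted p = 0.623). Summed adipocyte markers ranged from 66.4 to 235 TPM at ZT12 and from 36.7 to 209 TPM at ZT16, and replicate 2 was the highest library for them and for Scd1 at both time points, with 0 of the 5 tested markers called; their part in the Scd values was not tested.

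Genes of DNA replication and proliferation had a median of -0.62, which was -0.37 without ZT12 replicate 4. Of 21 tested 8 fell (38.1%, against 4.89% of all genes) and 0 rose, and 20 had a negative sign. The 8 were Ccnd1 and the other D cyclins Ccnd2 and Ccnd3, the helicase subunits Mcm2, Mcm3, Mcm5 and Mcm6, and Tyms, thymidylate synthase. Besides Ccnd1, they differed by -0.35 for Ccnd2 (adjusted p = 0.0124), -0.41 for Ccnd3 (adjusted p = 0.0161), -0.53 for Mcm2 (adjusted p = 0.0484), -0.62 for Mcm3 (adjusted p = 0.0463), -0.86 for Mcm5 (adjusted p = 0.0245), -0.59 for Mcm6 (adjusted p = 0.0309) and -0.60 for Tyms (adjusted p = 0.0125). Mcm5 measured 4.41, 7.62, 3.21 and 10.3 TPM at ZT12 and 3.47, 2.61, 2.81 and 2.35 TPM at ZT16. Mki67, a marker of dividing cells, measured 2.47, 3.81, 0.715 and 8.5 TPM at ZT12 and 1.57, 1.52, 1.12 and 0.646 TPM at ZT16 and was not called, at -0.90 ± 0.33 (SE, adjusted p = 0.0945). In both genes ZT12 replicate 4 was the highest library. Without that library only Ccnd1 was still called among the 21 (-0.75, adjusted p = 0.0381), and the other 7 had adjusted p from 0.108 (Ccnd2) to 0.26 (Mcm2), with 0.172 for Mcm5. Their calls were lost in 2 (Ccnd2, Tyms), 3 (Ccnd3), 5 (Mcm5, Mcm6) and 6 (Mcm2, Mcm3) of the 8 refits. Without ZT12 replicate 2 or ZT16 replicate 4 the list had 2 called members, without ZT12 replicate 1 it had 14, and without ZT12 replicate 3 it had 18. With only the 8 day-fed libraries in the fit it had 1.

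In the list of 35 ribosome biogenesis genes 6 fell (17.1%, against 4.89% of all genes) and 0 rose, with a median of -0.15, though median-of-ratios scaling left 2 fallers and 1 riser. The number lower was 3 without ZT12 replicate 4 or ZT16 replicate 4, 8 without ZT12 replicate 1, and 1 with only the 8 day-fed libraries in the fit. Nop56, of the box C/D particles that modify ribosomal RNA, fell from 14.2, 14.9, 13.1 and 15.7 TPM to 11.7, 10.7, 10.2 and 10.7 TPM. The difference of Nop56 was -0.39 ± 0.08 (SE, adjusted p = 0.00475). Its partner Nop58 differed by -0.35 (adjusted p = 0.00876), and Rrs1 by -0.36 (adjusted p = 0.0249, lost in 5 of 8, 0.14 without ZT12 replicate 4). Splicing factors followed the same direction, with 7 of 25 lower (28%, against 4.89% of all genes), 0 higher and a median of -0.24. Srsf1 went from 39.2, 42.3, 37.1 and 50.1 TPM to 32.4, 33.4, 32.1 and 29.99 TPM (-0.38 ± 0.10 SE, adjusted p = 0.0138, lost in 2 of 8, 0.103 without ZT12 replicate 4) and Srsf3 from 29.3, 34.3, 30.5 and 36.1 TPM to 22.6, 23.7, 25.9 and 25.8 TPM. On the log2 scale this was -0.39 ± 0.11 (SE, adjusted p = 0.0238, lost in 4 of 8, 0.108 without ZT12 replicate 4). The number of splicing factors called was 2 without ZT12 replicate 2 or ZT12 replicate 4, 3 or 4 without ZT16 replicates 2 to 4, and 9 without ZT12 replicate 3, and it was 4 with median-of-ratios scaling and 2 with only the 8 day-fed libraries in the fit.

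Translation factors went both ways. Eif4a1, the helicase of translation initiation, fell from 84.6, 101, 92.1 and 105 TPM to 76.2, 72.7, 71.6 and 67.8 TPM (-0.40 ± 0.07 SE, adjusted p = 0.00113). Eif4e, which binds the mRNA cap, fell from 55.9, 51.1, 53.3 and 52 TPM to 44.3, 42.5, 44.1 and 40.3 TPM (-0.30 ± 0.07 SE, adjusted p = 0.00965), although it missed the threshold under median-of-ratios scaling (adjusted p = 0.0796). The elongation factors Eef1a2 and Eef2 were higher. Eef1a2, the form of eEF1A found in muscle and neurons, rose from 1139, 981, 978 and 1079 TPM to 1492, 1419, 1342 and 1534 TPM with no overlap (0.47 ± 0.08 SE, adjusted p = 0.000721), and Eef2 rose by 0.38 ± 0.09 (SE, adjusted p = 0.0114). In total 2 of 22 factors rose (9.09%, against 1.07% of all genes) and 3 fell (13.6%, against 4.89%), where median-of-ratios scaling gave 3 higher and 1 lower. Of 81 cytosolic ribosomal protein genes 1 rose (1.23%, near the share of all genes), and Rpl3l, the muscle form of RPL3, was that gene (0.24, adjusted p = 0.0338, lost in 5 of 8, 0.111 without ZT12 replicate 2).

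Among 20 genes of the amino acid response and serine synthesis 1 rose (Chac1, 5%, against 1.07% of all genes) and 3 fell (15%, against 4.89% of all genes). Mthfd1l, a mitochondrial enzyme of folate metabolism, measured 3.13, 3.89, 3.57 and 3.75 TPM at ZT12 and 2.16, 1.12, 1.26 and 1.22 TPM at ZT16, and ZT16 replicate 1 was the highest of the later libraries while still below all ZT12 libraries. This was a 2.49-fold fall, or -0.93 ± 0.14 (SE, adjusted p = 0.000228). Psat1, of serine synthesis, fell from 2.92, 4.62, 2.91 and 4.56 TPM to 2.2, 1.81, 2.13 and 2.38 TPM (-0.58 ± 0.14 SE, adjusted p = 0.0111, lost in 2 of 8, 0.0641 without ZT12 replicate 4) and Asns, asparagine synthetase, by -0.50 (adjusted p = 0.0274, lost in 5 of 8, 0.135 without ZT12 replicate 4), while Atf4, the factor above these genes, differed by -0.07 (adjusted p = 0.732). Of 20 aminoacyl-tRNA synthetases 0 were called by limma (3 at an unadjusted p under 0.05), 3 rose with median-of-ratios scaling and 1 rose with voom.

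Clock genes moved in both directions across these hours. Of 19 tested 1 rose (5.26%, against 1.07% of all genes) and 4 fell (21.1%, against 4.89% of all genes), with a median of -0.34. Nr1d1, which encodes the repressor REV-ERB alpha, fell from 48.3, 45.9, 43.1 and 44.4 TPM to 28.4, 15.4, 18.5 and 17.7 TPM, with every ZT16 library lower (2.27-fold in the means). The difference amounted to -1.18 ± 0.27 (SE, adjusted p = 0.00897). The gene lies on chromosome 11 (GRCm38, 98767932 to 98775333) and overlaps Thra on the opposite strand. Arntl, the activator that Nr1d1 represses, rose from 1.32, 1.01, 1.65 and 1.09 TPM to 2.47, 3.87, 2.63 and 2.5 TPM. This gave a difference of 0.76 ± 0.23 (SE, adjusted p = 0.0389, lost in 5 of 8, 0.132 without ZT16 replicate 2). Dbp, an output transcription factor driven by the clock, measured 58.3, 60.7, 54.2 and 63.6 TPM at ZT12 and 55.3, 10.5, 16 and 16.2 TPM at ZT16. Its ZT16 replicate 1 sat at the ZT12 level and the others far below, so the groups overlapped (-1.53 ± 0.42 SE, adjusted p = 0.0251, lost in 5 of 8, 0.112 without ZT16 replicate 2), and without ZT16 replicate 1 the difference was -2.004 ± 0.42 (adjusted p = 0.00419). The labels give replicate 1 the same time point as the others of its group. Over 4103 genes that differed between the 14 groups, it correlated best with the mean of the other DRF ZT16 libraries (0.685). The mean of NRF ZT16 came second (0.52). Whether replicate 1 was taken at that hour was not tested.

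ZT16 replicate 1 was also the highest ZT16 library for the clock repressor genes Ciart, Per1 and Bhlhe41 and for the potassium channel gene Kcnh2. Ciart measured 3.34, 3.15, 3.57 and 3.63 TPM at ZT12 and 6.07, 1.1, 1.14 and 0.90 TPM at ZT16 and was not called (-0.66 ± 0.36 SE, adjusted p = 0.25). Per1 measured 15.4, 18, 20.3 and 24 TPM at ZT12 and 29.99, 10.3, 12.5 and 12.5 TPM at ZT16 and was not called either (-0.35 ± 0.36 SE, adjusted p = 0.588). Bhlhe41 measured 7.67, 6.3, 5.81 and 6.95 TPM at ZT12 and 6.0, 4.36, 4.05 and 4.03 TPM at ZT16 and was called (-0.46 ± 0.14 SE, adjusted p = 0.0433, lost in 6 of 8, 0.14 without ZT16 replicate 4), as was Kcnh2, with 42.7, 42.1, 43.8 and 44.8 TPM at ZT12 and 43, 24.1, 25.2 and 27.6 TPM at ZT16 (-0.56 ± 0.12 SE, adjusted p = 0.00726). Without that library Ciart had a difference of -1.11 (adjusted p = 0.0466), Per1 of -0.67 (adjusted p = 0.263), Bhlhe41 of -0.57 (adjusted p = 0.0179) and Kcnh2 of -0.74 (adjusted p = 0.000235). Hlf, another output factor, fell from 21.6, 21.6, 17.7 and 22.7 TPM to 17.5, 11.9, 13.4 and 11.6 TPM. The difference amounted to -0.60 ± 0.15 (SE, adjusted p = 0.0123, lost in 2 of 8, 0.058 without ZT16 replicate 4). Per2, Per3, Tef, Nr1d2 and Bhlhe40 had differences short of the threshold, from -0.47 for Per3 (adjusted p = 0.102) to -0.32 for Bhlhe40 (adjusted p = 0.383). Without ZT16 replicate 1 Tef passed, at -0.53 (adjusted p = 0.0478), Per3 reached -0.60 (adjusted p = 0.0511), and 6 clock genes were lower in place of 4. Without ZT16 replicate 2 or ZT16 replicate 4 the list had 1 lower and 0 higher, and without ZT12 replicate 2, ZT12 replicate 4 or ZT16 replicate 3 it had 2 lower and 0 higher. Cry1, Cry2, Clock, Npas2, Rora and Nfil3 were not called either, with differences from -0.03 for Cry2 to 0.58 for Nfil3.

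An E-box, CACGTG, the site bound by CLOCK and BMAL1, was found in the promoter window of 5 of the 16 clock genes that had one (of 19), 31.2% against 9.84% of the tested protein-coding genes with a window and 6.86% of all genes with one. The share was 13.3% among the risers and 13.7% among the fallers with a window (510 of 642 fallers had one), and 6 of 20 members of the FOXO and insulin responsive list (30%) held it too. The stretch of Bhlhe41, a clock gene that fell, is shown with the E-box in capitals, 153 bases before the start.
Bhlhe41, chr6:145865518-145865623, minus strand: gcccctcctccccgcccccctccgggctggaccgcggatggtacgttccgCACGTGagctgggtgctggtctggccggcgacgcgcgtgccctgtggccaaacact

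**Figure D3:**
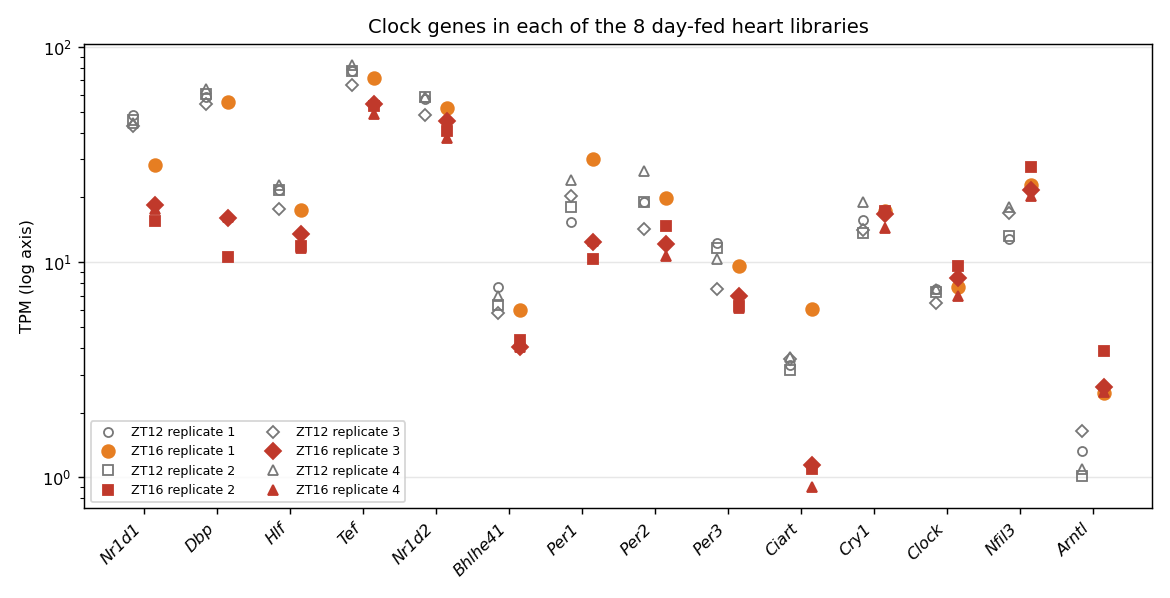
TPM on a log axis of 14 clock genes in each of the 8 day-fed libraries, with a marker shape per replicate number, open grey for ZT12, red for ZT16 and orange for ZT16 replicate 1. The orange point lies at 55.3 TPM for Dbp and 6.07 TPM for Ciart, above the other ZT16 libraries, which reach 16.2 and 1.14 TPM.

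Lists of other heart functions held at most 3 called members each. Of 21 heat shock chaperones 0 passed limma's threshold (2 at an unadjusted p under 0.05, 1 with voom). Hspa1b, for which reads shared with Hspa1a leave the level uncertain, measured 5.23, 6.9, 4.43 and 25.8 TPM at ZT12 and 4.01, 3.2, 5.37 and 4.34 TPM at ZT16 with 1 high ZT12 library. The log2 difference was -0.83 ± 0.36 (SE, adjusted p = 0.152). The cold-inducible RNA-binding protein gene Rbm3 fell from 29.1, 34.1, 28.5 and 29.3 TPM to 24.3, 16.5, 16.2 and 18.3 TPM (-0.67 ± 0.17 SE, adjusted p = 0.0125, lost in 2 of 8, 0.0558 without ZT12 replicate 2), while Cirbp differed by -0.36 (adjusted p = 0.216). Of 23 cardiac ion channel genes 1, Kcnh2, was called (4.35%, against 4.89% of all genes lower), with 2 more higher under median-of-ratios scaling and 1 higher and 3 lower with voom. Of 21 sarcomere and natriuretic peptide genes 1 was higher (4.76%, against 1.07% of all genes), Xirp2, an actin-binding repeat protein (0.52, adjusted p = 0.0424, lost in 6 of 8, 0.154 without ZT16 replicate 2), against 4 higher under median-of-ratios scaling and 2 with voom. Flt1, a VEGF receptor, rose from 33, 34.2, 33.5 and 38.1 TPM to 46.1, 49, 45 and 44.5 TPM (0.40 ± 0.10 SE, adjusted p = 0.0111) and Tfpi, an inhibitor of coagulation, differed by -0.24 (adjusted p = 0.0256, lost in 5 of 8, 0.139 without ZT16 replicate 4). These were the 2 called among 17 endothelial genes (5.88% in each direction, against 1.07% of all genes higher and 4.89% lower). Median-of-ratios scaling left 1 higher and 0 lower. Of 15 NRF2 target genes 1 rose (6.67%, against 1.07% of all genes), Sqstm1 given above, and 2 were lower (13.3%, against 4.89%). Of 12 iron handling genes 1 was lower (8.33%, against 4.89% of all genes). With only the 8 day-fed libraries in the fit neither list had a called member. Hmox1, heme oxygenase, which is in both lists, had a difference of -0.56 (adjusted p = 0.0419, lost in 5 of 8, 0.223 without ZT12 replicate 4) and Gsr, glutathione reductase, of -0.28 (adjusted p = 0.0103, lost in 2 of 8, 0.0823 without ZT16 replicate 4). Among 77 mitochondrial ribosomal proteins 1 was lower (1.3%, under the 4.89% of all genes), Mrps18b, at -0.30 (adjusted p = 0.0418, lost in 5 of 8, 0.169 without ZT12 replicate 4), and among 82 nuclear-encoded respiratory chain subunits likewise 1 (1.22%), Cox6a1, at -0.33 (adjusted p = 0.0261, lost in 4 of 8, 0.125 without ZT12 replicate 2). With median-of-ratios scaling 6 respiratory chain genes rose instead. Collagen and matrix genes (21), immediate early genes (22), calcium handling genes (23), branched-chain amino acid catabolism (19), NAD synthesis (14), Kruppel-like factors (12) and mitochondrially encoded genes (34) had 0 called members, where 10, 0, 6, 0, 5, 3 and 4 had an unadjusted p under 0.05. With median-of-ratios scaling 4 calcium handling, 3 NAD, 1 Kruppel-like and 1 collagen and matrix gene rose, and without ZT12 replicate 3 6 collagen and matrix genes were called lower. With voom 2 collagen and matrix genes, 1 calcium handling gene and 1 NAD gene were called and none of the immediate early, branched-chain or Kruppel-like genes.

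The day-fed difference was also tested against the same clock hours in NRF mice, which began to feed at ZT12. Between NRF ZT12 and ZT16 1187 genes differed (8.56%), and 349 genes had a difference in DRF that itself differed from that in NRF (2.52%; limma interaction, adjusted p under 0.05). Of the 148 day-fed risers 42 were among these, and of the 678 fallers 87. The DRF difference that chose these genes is itself part of the interaction, so some of this overlap is built in. Of Chac1 the NRF difference was -1.63 ± 0.31 where it had differed by 0.97 ± 0.31 in DRF (interaction 2.59 ± 0.43, adjusted p = 0.00056). Pnrc1 (-0.43 ± 0.16 in NRF, interaction 1.41 ± 0.22, adjusted p = 0.000351), Retreg1 (-0.50 ± 0.16, interaction 1.39 ± 0.22, adjusted p = 0.000377) and Glul (-0.36 ± 0.16, interaction 1.16 ± 0.23, adjusted p = 0.00291) likewise had negative estimates where mice were feeding. Of the 24 FOXO list members 9 differed between the regimens in this way. G0s2 stood on the other side, with 0.66 ± 0.26 in NRF (interaction -1.74 ± 0.37, adjusted p = 0.00612), as did Ppp1r3b (1.56 ± 0.26, interaction -2.34 ± 0.36, adjusted p = 0.000351), Scd2 (0.44 ± 0.17, interaction -1.11 ± 0.24, adjusted p = 0.00645) and Cited4, a transcriptional coregulator (0.97 ± 0.24, interaction -1.72 ± 0.35, adjusted p = 0.00341).

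Klhl38, a kelch-like protein, measured 6.66, 6.9, 6.19 and 4.91 TPM at ZT12 and 15, 9.72, 10.7 and 12 TPM at ZT16 in DRF (0.84 ± 0.30 SE, adjusted p = 0.0796). In NRF its difference was -1.06 ± 0.30 (interaction adjusted p = 0.00846). Heat shock chaperones, of which limma called 0 of 21 in DRF and voom 1, had 11 members higher in NRF at ZT16, where 2.68% of all genes were higher, and the regimens differed for 7 of the 21, against 2.52% of all genes. Hspa1b differed by 1.27 ± 0.36 in NRF (interaction -2.10 ± 0.51, adjusted p = 0.0186). For 0 of the 19 clock genes was the difference between the regimens past limma's threshold, where 3 had an unadjusted p under 0.05 and 1 was called with voom and 1 with median-of-ratios scaling. Nr1d1 differed by -1.89 ± 0.27 in NRF (interaction 0.71 ± 0.39, adjusted p = 0.392). DRF and NRF mice at ZT12 differ in feeding state already, so a difference of changes includes where each regimen started.

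In NRF mice the first 4 h without food fall at lights on. Over these hours 29 genes were called (0.209%; 1834 at an unadjusted p under 0.05), and for 307 genes (2.21%) the DRF difference was not the same as this one. Among the day-fed risers 63 differed from NRF in this way and among the fallers 132, where the DRF difference is again part of both. Of the 19 clock genes 6 were among them and 13 were not, and the median interaction of the list was 0.03. Nr1d1 differed by 1.96 ± 0.27 in NRF (interaction -3.14 ± 0.39, adjusted p = 3.04e-06). Dbp had an interaction of -2.88 ± 0.60 (adjusted p = 0.00749), Nr1d2 of -1.85 ± 0.27 (adjusted p = 5.08e-05), Nfil3 of 1.86 ± 0.35 (adjusted p = 0.00304) and Cry1 of 1.27 ± 0.22 (adjusted p = 0.00124). Abra, which rose in DRF, differed by -0.42 ± 0.15 in NRF (interaction 1.53 ± 0.21, adjusted p = 1.66e-05). For Retreg1 and Glul the NRF estimates were 0.34 ± 0.16 and 0.20 ± 0.16, and the regimens were not shown to differ (interactions 0.55 ± 0.22, adjusted p = 0.189, and 0.60 ± 0.23, adjusted p = 0.158). The replication list had 11 of 21 members that differed from NRF, Mcm5 among them (interaction -1.46 ± 0.33, adjusted p = 0.0164). Without DRF ZT12 replicate 4 only 1 of the 21 was called in DRF, and the 307 genes became 185. Ccl12 and Ccl7 differed too (interactions -1.50 ± 0.40, adjusted p = 0.0366, and -1.37 ± 0.36, adjusted p = 0.0342). Angptl7, a secreted angiopoietin-like protein, was not called in DRF (0.62, adjusted p = 0.185) but had an interaction of 1.66 ± 0.42 (adjusted p = 0.0273).

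**Figure D4:**
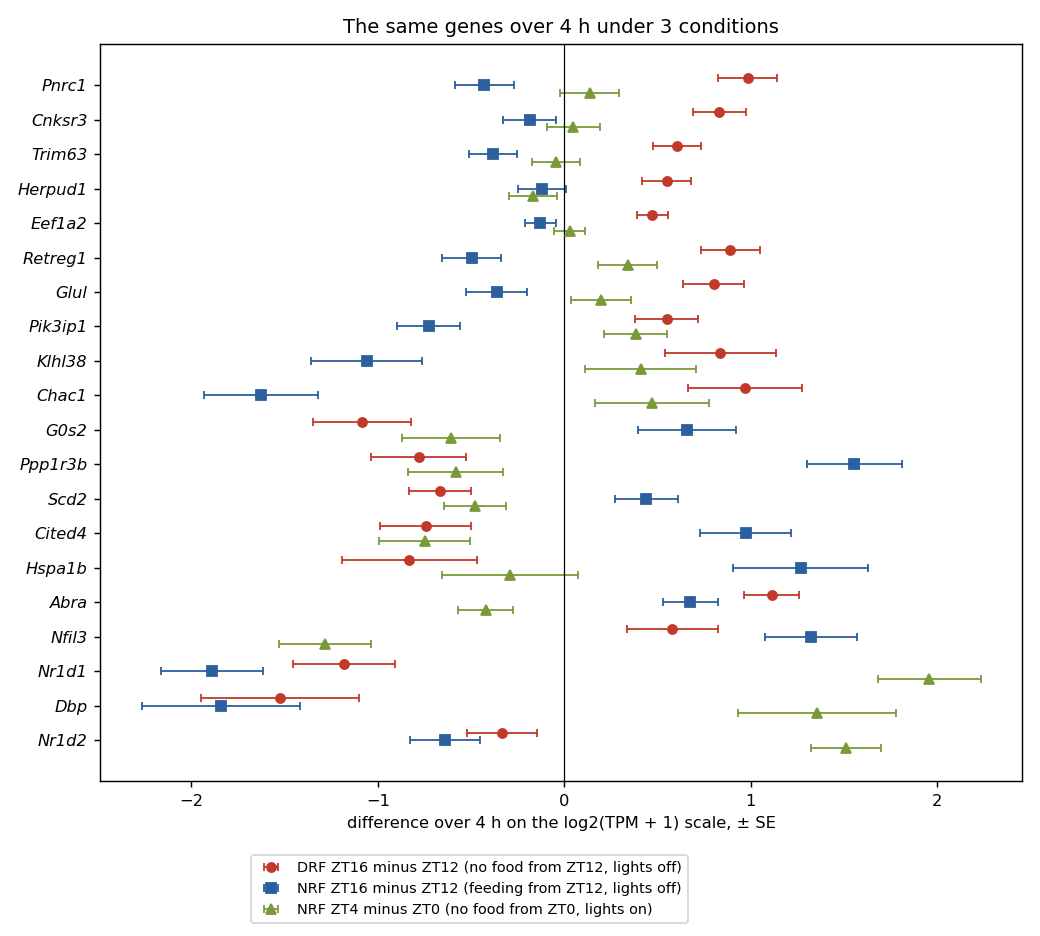
Difference over 4 h on the log2(TPM + 1) scale, ± SE of the fit, for 20 genes in DRF ZT16 minus ZT12 (red circles), NRF ZT16 minus ZT12 (blue squares) and NRF ZT4 minus ZT0 (green triangles), with 4 libraries per group. Pnrc1 to Chac1 have red points above 0 and blue points below 0, G0s2 to Hspa1b the reverse, and the clock genes Nr1d1, Dbp and Nr1d2 have red and blue points below 0 and green points above 0.

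Differences from both NRF comparisons were found for 19 of the 826 genes, 13 that rose and 6 that fell. The same DRF difference enters the call and both comparisons, so these are not independent. The risers were Pnrc1, Bdnf, Cnksr3, Lmod2, Trim63, Gm47985, Herpud1, Des, H2-K2, Eef1a2, Arrdc3, Mnt and Hs1bp3, and the fallers Bzw1, Slc35g2, Inip, Slbp, Eif4a-ps4 and Ankrd34a. Those not named earlier are outside the rule for named genes and were picked after their values were seen. Reads of the pseudogene Eif4a-ps4 may be shared with its parent family, and those of H2-K2 with other histocompatibility genes, so both are uncertain. Lmod2, which nucleates and lengthens actin filaments in the sarcomere, measured 420.2, 381, 406 and 474 TPM at ZT12 and 665, 757, 639 and 528 TPM at ZT16. Its difference was 0.61 ± 0.11 (SE, adjusted p = 0.000722). Des, desmin, the intermediate filament around the sarcomere, rose from 725, 638, 675 and 799 TPM to 1041, 1050, 897 and 1027 TPM. The fitted difference came to 0.50 ± 0.08 (SE, adjusted p = 0.000498). Bdnf, a neurotrophin, was lower in level, with 1.61, 2.14, 1.86 and 1.98 TPM at ZT12 and 3.66, 4.2, 5.09 and 3.82 TPM at ZT16. On the log2 scale this was 0.84 ± 0.17 (SE, adjusted p = 0.00292). In each of these the 4 later libraries lay above the 4 earlier ones. Arrdc3, an arrestin-related adaptor, and Mnt, a MYC antagonist, rose by 0.45 (adjusted p = 0.00553) and 0.43 (adjusted p = 0.041, lost in 8 of 8, 0.087 without ZT16 replicate 2), and Slbp, which binds the stem-loop of histone mRNAs, had a difference of -0.45 (adjusted p = 0.00817, lost in 1 of 8, 0.0598 without ZT12 replicate 4).

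After ZT16 the day-fed mice went on without food to ZT24, and the group means describe how the early changes continued, with no test because the ZT16 libraries are shared. Pnrc1 stood at 113 ± 12.9 TPM at ZT20 and 94.8 ± 12.4 TPM at ZT24 (SD, n = 4), near its ZT16 level. Retreg1 reached 178 ± 20.7 TPM at ZT20, from 131 ± 7.91 TPM at ZT16. Trim63 held between 166 and 170.3 TPM in its means from ZT16 to ZT24. Abra was lower again, at 29.2 TPM at ZT20 and 23.7 TPM at ZT24 against 37.8 TPM at ZT16. Among the fallers G0s2 (ZT20 mean 109 TPM), Ccnd1 (26.9 TPM), Eif4a1 (69.7 TPM) and Ccl12 (2.82 TPM) stayed low.

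**Figure D5:**
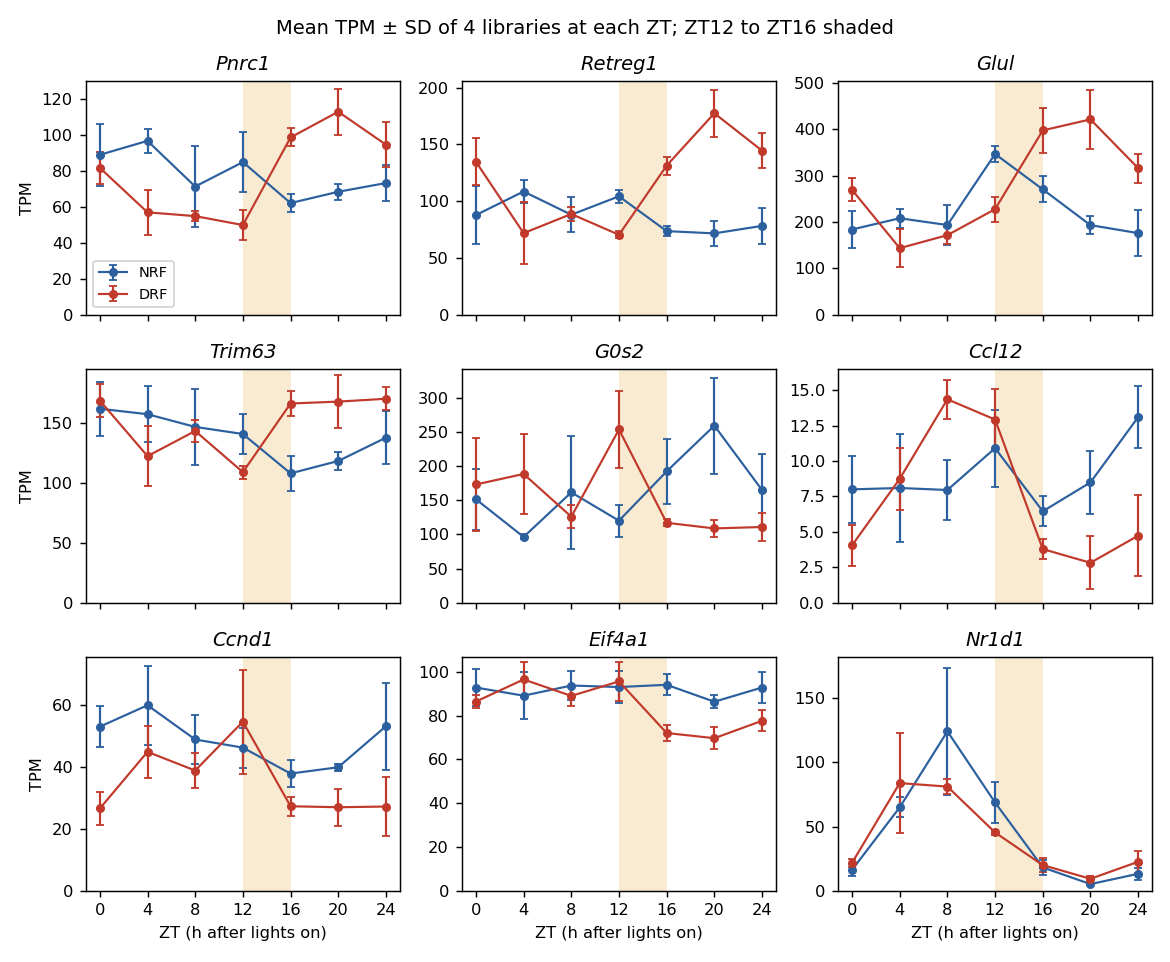
Mean TPM ± SD of 4 libraries at each ZT (hours after lights on) in DRF (red) and NRF (blue) for 9 genes, with ZT12 to ZT16 shaded. Within the shaded hours Pnrc1, Retreg1, Glul and Trim63 go up in DRF and G0s2, Ccl12, Ccnd1, Eif4a1 and Nr1d1 go down, and Retreg1 peaks at 178 TPM at DRF ZT20.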

How the data were processed

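Per the labels and the study's methods, heart polyA RNA was prepared with a NEBNext Ultra kit, which does not mark strand, and sequenced as 150 bp paired-end reads; the submitters' processing notes name HISAT2 2.0.5, featureCounts 1.5.0-p3 and mm10. The deposited table, which the authors call TPM, holds a log-scaled quantity (unit other): each value is proportional to log2(1 + a constant times the reads), divided by gene length. Whole reads were recovered from it with GENCODE M21 lengths (22864 genes; 21983 by annotated length, 858 by a searched length, 821 of them on chromosomes 17 to 19, and 23 too abundant to check), and all of the 1.1972e+06 values under 100000 reads were within 0.1 of a whole read. TPM was then recomputed by dividing reads by length and scaling each library to the same sum. The design had assumed linear TPM, and its test was kept on the recomputed values. No molecular identifiers were used, so depth describes counting error only, and nothing in the sources used here says more of how replicates were taken than that they are separate samples, so p-values measure the spread between these samples.

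Genes whose mean reached 1 TPM were tested with limma 3.58.1 (R 4.3.3) on log2(TPM + 1), with 14 group means over all 56 libraries, a trended prior and Benjamini-Hochberg adjustment over 13869 genes, 2-sided at 0.05; interactions were contrasts of the same fit. Recovery of the reads and the limma test of DRF ZT16 minus ZT12 were tested on simulated data, and the other steps were not. Python 3.11.15 with pandas 2.3.3, numpy 2.4.6, scipy 1.17.1 and matplotlib 3.10.9 did the rest. Promoter windows came from RefSeq (GRCm38.p6), matched by symbol or synonym. Named genes were the 12 largest called rises and 12 largest falls without overlap, protein coding and with a mean of at least 5 TPM, up to 2 called in each direction per gene list with its best known member, all clock genes, and the 6 largest interactions of each kind. A few named genes and list members are not reported here one by one, and counts over the lists include them. Members and lists were chosen with earlier results of these data known. Alternatives were the pseudocount, filter, scaling, TPM sum, deposited values, voom, fewer libraries, replicate block, a stricter threshold, NRF ZT24 for ZT0 and leaving out each library. No 2 libraries were identical, and 0 columns of values were left unused.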

Additional observations from a re-analysis of the deposited data

Results flagged for a closer look

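Among 170 sets of 4 libraries examined for the named genes (85 genes at ZT12 and at ZT16), 16 held a library whose gap to its nearest neighbour, divided by the range of the 4, was above Dixon's 95% critical value. Genes not reported here count in the 170, while any such sets of theirs were left out of the 16. About 5% of independent sets of normally distributed values would lie there. These sets share libraries and the leading genes were chosen for non-overlap, so that share does not apply to them directly. Of these 16, 6 were in ZT16 replicate 1 and all were high values: Dbp at 55.3 TPM, Per1 at 29.99 TPM, Ciart at 6.07 TPM, Bhlhe41 at 5.998 TPM, Pik3ip1 at 40.3 TPM and Mthfd1l at 2.16 TPM. In ZT12 replicate 4, Abra at 22.6 TPM and Hspa1b at 25.8 TPM were the high values of their sets. ZT12 replicate 2 was high for Chac1 at 3.22 TPM and Rbm3 at 34.1 TPM, and ZT12 replicate 3 was low for Cnksr3 at 8.81 TPM and Nr1d2 at 48.2 TPM. At ZT16, replicate 2 was high for Arntl at 3.87 TPM, and replicate 4 was low for Ccnd1 at 22.6 TPM, Ppargc1a at 33.1 TPM and Gsr at 13.7 TPM.

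The ZT16 minus ZT12 difference of 23 named genes was not the same in DRF as in NRF (limma interaction, adjusted p under 0.05). On the log2(TPM + 1) scale, DRF minus NRF, it was above 0 for Klhl34 1.15, Pnrc1 1.41, Chac1 2.59, Retreg1 1.39, Cnksr3 1.02, Glul 1.16, Trim63 0.99, Pik3ip1 1.28, Pygm 0.45, Herpud1 0.67, Eef1a2 0.60, Eef2 0.53 and Klhl38 1.89. It was below 0 for G0s2 -1.74, Idi1 -0.44, Scd2 -1.11, Eif4a1 -0.42, Srsf3 -0.67, Srsf1 -0.68, Mrps18b -0.51, Ppp1r3b -2.34, Hspa1b -2.10 and Cited4 -1.72.

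For 29 of the named genes reported here the DRF difference was not that of NRF ZT4 minus ZT0 (limma interaction, adjusted p under 0.05). The DRF value exceeded the NRF value for Abra 1.53, Pnrc1 0.85, Cnksr3 0.78, Olfr1033 1.01, Ppargc1a 0.66, Trim63 0.65, Herpud1 0.72, Eef1a2 0.44, Xirp2 0.83, Flt1 0.48, Cry1 1.27, Nfil3 1.86 and Angptl7 1.66. It was the smaller for Ccl12 -1.50, Ccl7 -1.37, Nr1d1 -3.14, Tspan4 -1.15, Ccnd1 -1.10, Fhl3 -0.86, Lrrc17 -0.97, Tbxa2r -1.03, Dbp -2.88, Rbm3 -1.16, Mthfd1l -0.91, Psat1 -0.93, Gsr -0.40, Mcm5 -1.46, Nr1d2 -1.85 and Mki67 -1.76. The causes of these differences were not tested.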

How the results depend on the processing

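The 826 genes called for DRF ZT16 minus ZT12 became 550 with no filter on low values, 1382 with limma voom on the recovered reads (825 of the 826 among them), 294 with only the 8 day-fed libraries in the fit, and 156 at an adjusted p under 0.01; leaving out each of the 8 libraries in turn gave 272 to 1035. Pseudocounts of 0.1, a minimum mean of 5 TPM, and median-of-ratios scaling (987) stayed within 1.5 times of the main count, as did TPM without mitochondrially encoded genes (171 higher and 1016 lower) and the deposited log-scaled values (402 higher and 241 lower). The share of lower genes was 82.1% on TPM, 40.3% with median-of-ratios scaling; a direction shared by most genes is therefore relative to the scaling.

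The 349 genes differing from NRF ZT16 minus ZT12 became 707 with median-of-ratios scaling and 774 with voom, and 163 to 372 when each library of the 4 groups was left out. The 307 genes differing from NRF ZT4 minus ZT0 became 819 with median-of-ratios scaling, 687 without mitochondrially encoded genes in the TPM sum, 491 on the deposited values, 679 with voom, 52 with only the 16 libraries of the groups, 775 with NRF ZT24 in place of ZT0, and 82 (without NRF ZT4 replicate 4) to 538 (without NRF ZT4 replicate 1) when each library was left out, so this number is poorly fixed.

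Replicate numbers were not shown to pair these libraries: same-numbered libraries at ZT12 and ZT16 had deviations correlated at 0.231, 0.0603, -0.0975 and -0.0699. In this pair of groups 1 of 4 libraries correlated best with its own number. Between NRF ZT0 and ZT4 it was 3 of 4, so a shared factor is not excluded. With the replicate number as a block 137 genes were called in the 8 day-fed libraries and 840 in all 56, and the count of genes differing from NRF ZT4 minus ZT0 went from 307 to 301 with the block in all 56 and from 52 to 28 with it in only the 16 libraries of the 4 groups. Of 85 named genes 65 were called, 31 of these in each of the 8 leave-one-out fits, and none changed direction under any setting tried. The causes of these movements were not tested. With 4 libraries per group, genes short of the threshold are not shown to be unchanged.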
